A study of Mus musculus with 6 samples.

Results

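Molecular chaperones are proteins that bind unfolded or partly folded proteins and help them to fold, refold, reach their compartment or be degraded. The HSP70 proteins do this in cycles of ATP binding and hydrolysis. J-domain proteins bring them substrates and start the hydrolysis, and nucleotide exchange factors such as some BAG domain proteins release the substrate again. HSP90 and its cofactors mature signalling proteins, among them the glucocorticoid receptor, which is why chaperones are of interest in tissue exposed to corticosterone (CORT), the main glucocorticoid of rodents. Neurons do not divide and keep their proteins over long times, and the constitutive HSP70 of the brain also removes clathrin coats from vesicles at the synapse.

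The genes described here are the heat shock proteins, protein-folding chaperones and their cofactors in a deposited table of hippocampal gene expression. They were chosen by gene name. The names had to begin with Hsp, Dnaj, Bag (1 to 6), Fkbp and a digit, Cct and a digit, Pdia, Stip1, Ppi (a to h), Ahsa, Cdc37, Ptges3, Calr, Canx, Sel1l, Sdf2 or Hyou1, and Fkbp4 and Fkbp5 were left out. The rule found 14 of the 2404 listed genes, namely Hspa8, Hspa2, Hspa13, Dnajb1, Dnajb2, Dnajb5, Dnajb14, Dnajc10, Bag5, Bag6, Cdc37l1, Fkbp2, Ppif and Sel1l3. The last of these matches by the beginning of its name, and no chaperone activity of its protein is assumed here.

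The samples were hippocampi of adult male C57BL/6 mice, which were 7 to 8 weeks old when divided into groups. In the CORT group 40 mg/kg corticosterone was injected subcutaneously every day for 36 days, and in the vehicle group the solvent of DMSO, Tween-80 and water alone was injected on the same schedule. Each group had 3 libraries, no altered allele is named for either, and the sources used here do not say whether a library held tissue of more than 1 mouse. Cortisone is the treatment named in the labels of the CORT group, whereas the study's methods name corticosterone. The control columns of the table are headed WT, which names no treatment, and were taken as vehicle because the table has no other group. Libraries are numbered here as the columns are, and those numbers could not be tied to single samples.

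The values are TPM, RSEM's measure of transcript abundance per gene, scaled for transcript length and library total. TPM keeps no read number, so the depth of the libraries is unknown. The table lists only genes that the authors had found to differ between these same libraries, so each gene below was in the table because of its difference, and chaperones outside it were not analysed here. A low p or a count of changed genes is therefore a description and no independent evidence of a change. The listed genes took up 29.2% to 29.9% of all TPM in vehicle and 30.1% to 31.5% in CORT. Of 68 marker genes for 8 cell types that hippocampal tissue may hold, 23 were listed, and none of these was at 0 in any library. For microglia 5 of 10 markers were listed, 4 were lower in the CORT group, and their summed TPM was 144 to 164 in vehicle and 89.1 to 114 in CORT. For endothelium 7 of 10 were listed, 4 were lower and 1 was higher, with sums of 149 to 172 and 179 to 190 TPM. The higher sum in CORT came from Slc2a1, the glucose transporter of the blood-brain barrier, alone. The other 6 all had lower CORT means, and without Slc2a1 the sums were 84.5 to 92.3 TPM in vehicle and 46.5 to 48.8 TPM in CORT. For astrocytes 4 of 8 were listed and 1 was lower, with sums of 1623 to 1697 and 1485 to 1503 TPM. The only listed markers of oligodendrocytes, neurons and choroid plexus were Mobp, which was higher in the CORT group (478 to 648 and 628 to 885 TPM), and Neurod6 (140 to 178 and 134 to 140 TPM) and Folr1 (1.33 to 3.20 and 2.10 to 22.5 TPM), neither of which passed. For pericytes and smooth muscle 4 of 8 were listed, 1 was higher and 1 was lower, with sums of 103 to 118 and 93.2 to 98.0 TPM. In such bulk tissue, fewer cells of a type and less RNA per cell cannot be told apart, and the part of these shifts in the chaperone values was not tested.

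Chaperone transcripts shifted little and in both directions after CORT. Dnajb2, Dnajb5, Fkbp2 and Sel1l3 were lower and Ppif and Bag5 were higher in the CORT group at an adjusted p under 0.05, and the other 8 genes did not pass. Testing used limma on log2(TPM + 1). It covered the 2241 listed genes that reached 1 TPM in 3 or more libraries, with Benjamini-Hochberg adjustment across those genes. Log2 fold changes are on that scale, CORT minus vehicle, and all 14 chaperone genes passed the filter on low values. Among all genes tested 25.8% were higher, 24.7% were lower and 50.6% changed in either direction, against 14.3% (2 of 14), 28.6% (4 of 14) and 42.9% (6 of 14) of the chaperone genes, so the chaperone genes are near the background of the table. Their absolute log2 fold changes ran from 0.08 to 0.32 with a median of 0.18, while the median over all genes tested was 0.26. Their signed median was 0.04 and that of all genes tested 0.05. In 9 of the 14 genes (64.3%) no CORT library overlapped the vehicle range, compared with 69.8% of all genes tested.

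**Figure D1:**
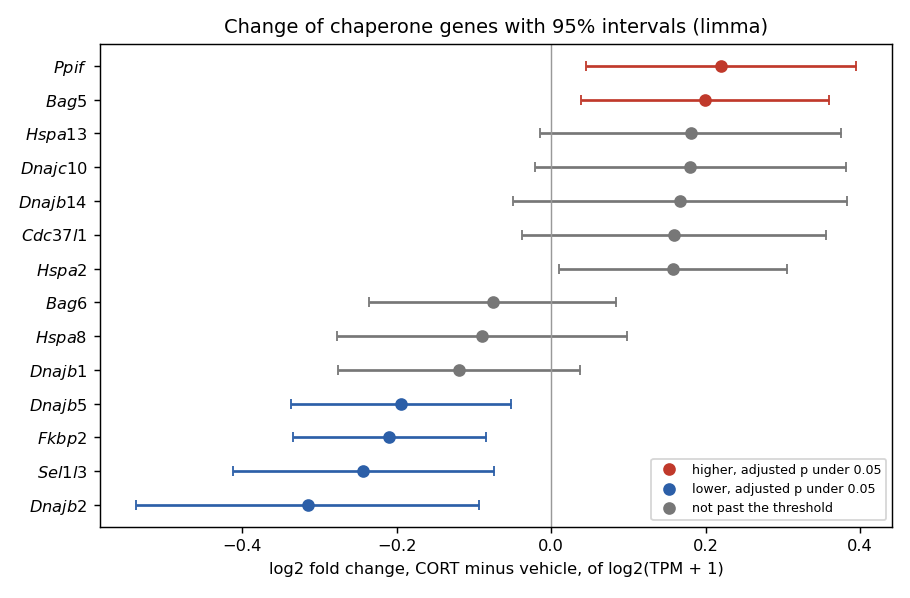
Log2 fold change (CORT minus vehicle, of log2(TPM + 1)) of the 14 chaperone genes from limma, with 3 libraries a group; points are estimates and bars are 95% intervals. Red and blue mark the genes past an adjusted p of 0.05, which are Ppif and Bag5 above zero and Dnajb5, Fkbp2, Sel1l3 and Dnajb2 below it, and the interval of Hspa2 also lies above zero although its adjusted p was 0.065.

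Promoters of 11 of the 14 genes were found in RefSeq (build GRCm38.p6, 250 bases before to 50 after a start site), all but those of Hspa8, Hspa13 and Sel1l3. Of the genes that passed the test, the promoters of Dnajb2, Dnajb5 and Ppif are shown, and that of Dnajc10 is shown because it held the single match to a heat shock element. Each is the first start site listed for its gene, on the plus strand, and capitals mark the motifs searched.
Dnajb2, chr1:75236173-75236472: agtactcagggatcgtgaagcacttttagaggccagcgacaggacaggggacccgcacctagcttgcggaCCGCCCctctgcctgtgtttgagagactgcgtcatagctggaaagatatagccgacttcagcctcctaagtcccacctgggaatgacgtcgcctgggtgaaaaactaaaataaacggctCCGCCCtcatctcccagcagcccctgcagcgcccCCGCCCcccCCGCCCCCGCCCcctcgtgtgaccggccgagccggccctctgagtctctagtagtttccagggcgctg
Dnajb5, chr4:42949617-42949916: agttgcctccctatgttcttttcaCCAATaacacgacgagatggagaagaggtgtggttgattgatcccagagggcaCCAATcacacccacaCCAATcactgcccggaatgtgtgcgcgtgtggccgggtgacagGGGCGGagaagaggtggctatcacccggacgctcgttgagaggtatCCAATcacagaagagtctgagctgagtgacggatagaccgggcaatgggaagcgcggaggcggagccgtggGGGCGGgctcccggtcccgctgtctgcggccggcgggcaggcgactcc
Ppif, chr14:25693920-25694219: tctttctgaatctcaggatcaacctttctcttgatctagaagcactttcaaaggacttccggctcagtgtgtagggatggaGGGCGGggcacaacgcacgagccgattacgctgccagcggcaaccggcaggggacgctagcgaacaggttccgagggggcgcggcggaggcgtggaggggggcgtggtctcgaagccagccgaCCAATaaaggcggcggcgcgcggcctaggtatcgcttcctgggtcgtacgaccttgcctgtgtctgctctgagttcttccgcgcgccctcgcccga
Dnajc10, chr2:80315216-80315515: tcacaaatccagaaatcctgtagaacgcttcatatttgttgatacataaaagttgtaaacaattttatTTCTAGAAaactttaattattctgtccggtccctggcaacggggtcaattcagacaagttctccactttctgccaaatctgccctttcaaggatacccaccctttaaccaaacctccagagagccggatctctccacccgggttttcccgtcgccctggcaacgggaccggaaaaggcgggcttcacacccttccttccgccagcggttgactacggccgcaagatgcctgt
Motifs were searched on both strands, and each of the 11 genes was counted by its first start site. The pair of heat shock units GAANNTTC was in none of the 11 promoters and in 7.86% of all 32851 promoters, and the pair TTCNNGAA was in 1 of the 11 (Dnajc10) and in 8.52% of all. The element of 3 units, TTCNNGAANNTTC, which contains both pairs, and the core ACANNNTGT of a glucocorticoid receptor element were in none of the 11, and in 0.603% and 6.85% of all. The endoplasmic reticulum (ER) stress element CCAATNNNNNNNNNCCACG, which contains a CCAAT box, was also in none of the 11 and in 0.119% of all. In the sequences shown, the capitals in Dnajb2 are 5 GC boxes (GGGCGG or its complement), those in Dnajb5 are 4 CCAAT boxes and 2 GC boxes, and those in Ppif are 1 of each. GC boxes were in 8 of the 11 promoters and 35.7% of all, and CCAAT boxes in 5 of the 11 and 37.4% of all. These matches describe letters in the window only.

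The HSP70 proteins are the ATP-driven core of the system. Hspa8, the constitutive HSP70 of the cytosol that also uncoats clathrin vesicles, was the most abundant chaperone gene and lay above 99.1% of all genes tested in mean TPM. It had 1999, 1813 and 1881 TPM in the vehicle libraries and 1672, 2054 and 1646 TPM in the CORT libraries. CORT replicate 2 was thus the highest of all libraries and the other CORT libraries were the lowest. The log2 fold change of Hspa8 was -0.09 (SE 0.08, with a limma adjusted p of 0.32). Without CORT replicate 2 it was -0.19 and passed (limma adjusted p 0.042), while quantile normalization turned it to 0.10. Its transcript matched 8 other annotated genes at 95% identity or more over at least 200 bases, so reads may have been split between them and the value is uncertain.

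Hspa2, an HSP70 known for its part in sperm development and also present in brain, had 57.5, 59.4 and 61.7 TPM in vehicle and 65.5, 64.0 and 70.0 TPM in CORT. The CORT values of Hspa2 all exceeded the vehicle values. The fitted difference was 0.16 on the log2 scale (SE 0.07), and its limma adjusted p of 0.065 missed the threshold. Hspa13, an HSP70-like protein of the ER and microsomes, had 13.7, 14.95 and 15.01 TPM in vehicle and 17.6, 16.0 and 16.3 TPM in CORT. The groups did not overlap for Hspa13 either, and its log2 fold change was 0.18 (SE 0.09, with a limma adjusted p of 0.090).

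The J-domain genes of the cytosol and nucleus were lower after CORT where they passed the test. Dnajb2, a neuron-enriched J-domain protein that binds ubiquitin and directs substrates to the proteasome, had the largest change among the 14 genes. Its levels were 102, 82.9 and 105 TPM in vehicle and 74.8, 84.5 and 72.5 TPM in CORT. Vehicle replicate 2 lay below CORT replicate 2, so the groups overlapped. The mean of Dnajb2 was 96.7 ± 12.04 TPM (SD, n = 3) in vehicle and 77.2 ± 6.39 TPM (SD, n = 3) in CORT, a log2 fold change of -0.32 (SE 0.10, with a limma adjusted p of 0.030). The call was kept without vehicle replicate 2 or CORT replicate 2, the pair that overlapped, and was lost without any other single library (adjusted p up to 0.090 from limma).

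Dnajb5, a relative of the classical HSP40, had 161, 141 and 143 TPM in vehicle and 126, 130 and 132 TPM in CORT. All CORT libraries lay below all vehicle libraries for Dnajb5, and vehicle replicate 1 stood above the other two. For Dnajb5 the log2 fold change was -0.19 (SE 0.06, with a limma adjusted p of 0.034). It was lost without vehicle replicate 1 or any CORT library, with adjusted p-values of up to 0.088 from limma. Dnajb1, the classical heat-inducible HSP40 and partner of Hspa8, had 47.8, 43.1 and 45.4 TPM in vehicle and 40.4, 42.1 and 42.7 TPM in CORT. These ranges did not overlap, but the gap between them was under 1 TPM. For Dnajb1 the log2 fold change was -0.12 (SE 0.07), and its adjusted p was 0.14 from limma.

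Dnajb1, Dnajb2 and Dnajb5 summed to 311, 267 and 293 TPM in vehicle and 241, 256 and 247 TPM in CORT. Every CORT sum was below every vehicle sum. Set against Hspa8 in the same library, the sum was 15.5%, 14.7% and 15.6% in vehicle and 14.4%, 12.5% and 15.01% in CORT. On this scale the groups overlapped, with CORT replicate 2, the library of highest Hspa8, at the lowest share.

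The J-domain genes of the ER had positive values and did not pass the test. Dnajc10, which encodes ERdj5, a reductase that opens disulfide bonds of proteins bound for degradation, had 21.8, 20.5 and 25.1 TPM in vehicle and 25.1, 26.1 and 25.3 TPM in CORT. Vehicle replicate 3 equalled CORT replicate 1 at the 2 decimals of the table. The log2 fold change of Dnajc10 was 0.18 (SE 0.09, with a limma adjusted p of 0.097), and without vehicle replicate 3 it was 0.26 and passed (limma adjusted p 0.028). Dnajb14, anchored in the ER membrane with its J domain facing the cytosol, had 14.8, 17.2 and 18.4 TPM in vehicle and 19.2, 18.8 and 18.8 TPM in CORT. The groups did not overlap, since all CORT libraries were just above vehicle replicate 3. The log2 fold change of Dnajb14 was 0.17 (SE 0.10, with a limma adjusted p of 0.13). Parts of its transcript matched 23 other annotated genes at 95% identity or more over at least 200 bases, with a highest identity of 96.6%.

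**Figure D2:**
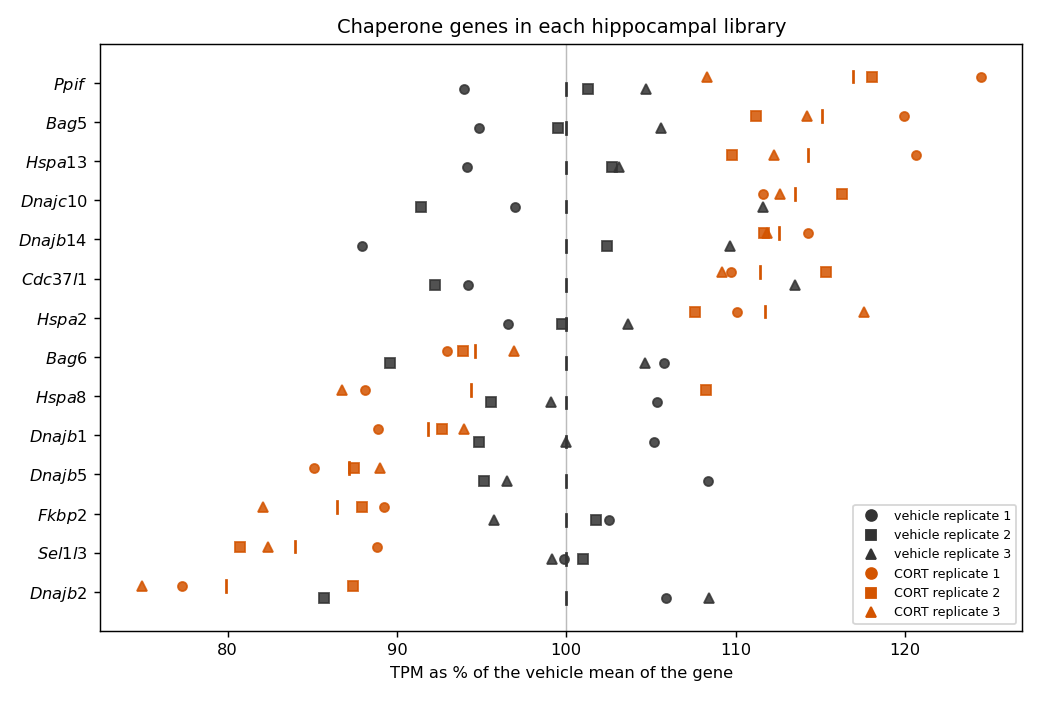
TPM of the 14 chaperone genes in each library, as a percentage of the vehicle mean of the gene; symbols are the 3 vehicle (dark grey) and 3 CORT (orange) libraries and vertical ticks are group means. CORT libraries lie fully to the right of the vehicle libraries for Ppif, Bag5, Hspa13, Dnajb14 and Hspa2 and fully to the left for Dnajb1, Dnajb5, Fkbp2 and Sel1l3, while Hspa8 in CORT replicate 2 lies to the right of all other libraries.

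The BAG domain cofactors differed from each other. Bag5, which acts on HSP70 as a nucleotide exchange factor and is known to restrain the ubiquitin ligase parkin, had 38.4, 40.3 and 42.8 TPM in vehicle and 48.6, 45.02 and 46.3 TPM in CORT. Each CORT library exceeded each vehicle library. The mean of Bag5 was 40.5 ± 2.18 TPM (SD, n = 3) and 46.6 ± 1.80 TPM (SD, n = 3), a log2 fold change of 0.20 (SE 0.07, with a limma adjusted p of 0.045). This adjusted p stood close to the threshold, and it held in 1 of the 6 fits that left out a library, that without vehicle replicate 3, and reached 0.13 in the others. Bag6, which shields hydrophobic proteins that failed to reach a membrane, had 148, 125 and 147 TPM in vehicle and 130, 132 and 136 TPM in CORT. Vehicle replicate 2 was below all CORT libraries and the other vehicle libraries were above them. For Bag6 the fitted log2 difference was -0.08 (SE 0.07, with a limma adjusted p of 0.33).

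Cdc37l1 encodes a relative of Cdc37, the cofactor that brings kinases to HSP90. It had 44.6, 43.6 and 53.7 TPM in vehicle and 51.9, 54.5 and 51.6 TPM in CORT, with vehicle replicate 3 inside the CORT range. Its log2 fold change was 0.16 (SE 0.09, with a limma adjusted p of 0.12), and without vehicle replicate 3 it was 0.25 (limma adjusted p 0.023). Exons of Cdc37l1 overlap those of Ak3 on the other strand.

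Prolyl isomerases turn the peptide bond before proline, a slow step in folding. Fkbp2, the FK506-binding isomerase of the ER lumen, had 228, 227 and 213 TPM in vehicle and 199, 196 and 183 TPM in CORT. The CORT libraries lay below the vehicle libraries without overlap. Fkbp2 averaged 223 ± 8.27 TPM (SD, n = 3) in vehicle and 193 ± 8.45 TPM (SD, n = 3) in CORT, a log2 fold change of -0.21 (SE 0.06, with a limma adjusted p of 0.018). It had the smallest adjusted p of the 14 genes. Its call was kept in 5 of the 6 fits that left out a library and missed the threshold without CORT replicate 3 (limma adjusted p 0.060). With quantile normalization the calls of Fkbp2, Ppif and Bag5 were lost (limma adjusted p 0.053, 0.069 and 0.068), and those of Dnajb2, Dnajb5 and Sel1l3 were kept.

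Ppif encodes cyclophilin D, the isomerase of the mitochondrial matrix that promotes opening of the permeability transition pore. It had 40.5, 43.7 and 45.2 TPM in vehicle and 53.7, 50.9 and 46.7 TPM in CORT. CORT replicate 3 was close to vehicle replicate 3, and the groups did not overlap. The mean of Ppif was 43.1 ± 2.38 TPM (SD, n = 3) in vehicle and 50.4 ± 3.51 TPM (SD, n = 3) in CORT, a log2 fold change of 0.22 (SE 0.08, with a limma adjusted p of 0.043). The call was kept without vehicle replicate 3 and without CORT replicate 3 and lost without any other library, with an adjusted p of up to 0.13 from limma. Ppif shares exonic sequence with an antisense gene, Ppifos. The study's methods say that reads were aligned with their orientation taken into account, but the strand setting of the quantification is not given in the sources used here, so reads of the pair may not have been told apart.

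Sel1l3 is related by name and repeats to Sel1l, a part of the ER degradation machinery, and its own function was not assumed. It had 27.1, 27.4 and 26.9 TPM in vehicle and 24.1, 21.9 and 22.3 TPM in CORT. The vehicle libraries were within 1 TPM of each other, and all CORT libraries lay below them. The log2 fold change of Sel1l3 was -0.24 (SE 0.08, with a limma adjusted p of 0.029), and it was lost without vehicle replicate 1 or 2 or CORT replicate 2 or 3, with an adjusted p of up to 0.10 from limma.

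By compartment, the 8 genes of the cytosol and nucleus had a median log2 fold change of -0.08, against 0.05 over all genes tested. Of the 8 genes 1 was higher (Bag5) and 2 were lower (Dnajb2 and Dnajb5), so 37.5% were called against 50.6% of all genes tested. The 4 ER genes had a median of 0.17, and 25% of them were called. The isomerase Fkbp2 was the only one of those 4 that passed, and it was lower, while Hspa13, Dnajb14 and Dnajc10 had positive values. Fkbp2 was also the bulk of the ER transcripts, and the 4 genes summed to 272 to 279 TPM in vehicle and 243 to 261 TPM in CORT. The median GC content of the transcripts, taken up below, was 53.1% for the cytosol and nucleus and 43.6% for the ER. No trait of a compartment is read from these values.

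The sign of the change went with the base composition of the transcript. The 7 chaperone genes with positive values had a median GC content of 44.9% in their longest transcript, and the 7 with negative values one of 54.5%. At the low end were Hspa13 (39.8%), Cdc37l1 (41.5%), Dnajb14 (42.4%) and Dnajc10 (44.9%), all with positive values. Fkbp2 (62.6%), Bag6 (59.9%) and Dnajb2 (57.3%) were the highest and all had negative values. Hspa8 at 45.9% and Hspa2 at 53.6% were among those that departed from this order. Pearson's r between GC content and log2 fold change was -0.63 over the 14 genes and -0.29 over 2238 genes tested, as a description across genes that share the same 6 libraries. Among all genes tested, 83.6% of those under 45% GC and 23.6% of those over 55% GC had a positive value.

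**Figure D3:**
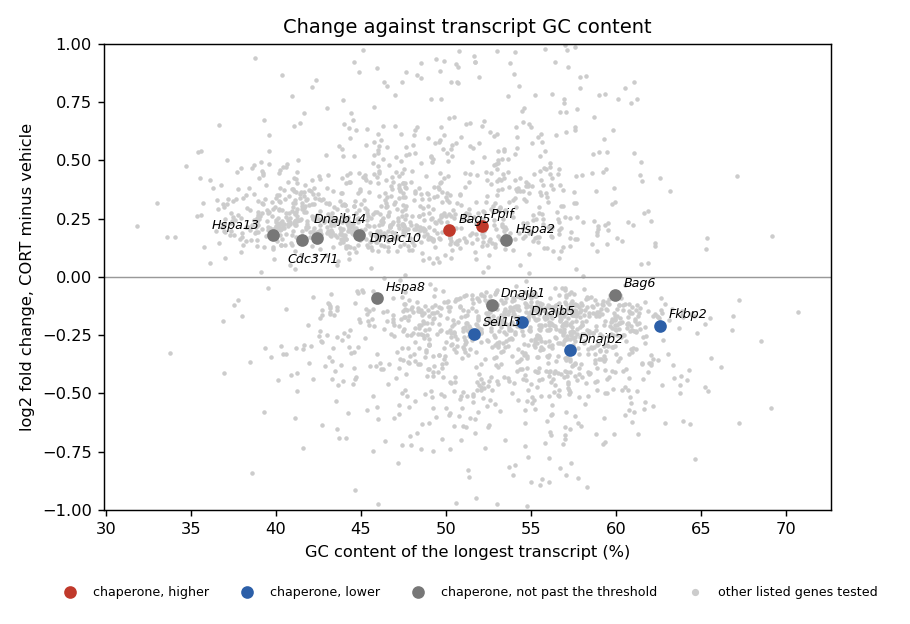
Log2 fold change (CORT minus vehicle) against the GC content (%) of the longest transcript, with the 14 chaperone genes named and other genes tested in light grey; genes changed by more than 1 on the log2 scale lie outside the axis. Named genes under 45% GC are all above zero, and the 3 richest in GC, Fkbp2, Bag6 and Dnajb2, are below it.

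After a smooth trend with GC content was removed from each library, Fkbp2 had a log2 fold change of 0.02 (limma adjusted p 0.75) and Dnajb2 one of -0.19 (limma adjusted p 0.17). Hspa13, Dnajb14 and Cdc37l1 were then within 0.01 of zero, and Dnajb5 and Bag5 did not pass (adjusted p = 0.094 and 0.064 from limma). Ppif (log2 fold change 0.24, limma adjusted p 0.043) and Sel1l3 (-0.23, limma adjusted p 0.034) kept their calls, and Hspa2 passed at 0.21 (limma adjusted p 0.036). The part of GC content in these differences was not tested, and the correction would also remove any tissue response common to genes of like composition.

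**Figure D4:**
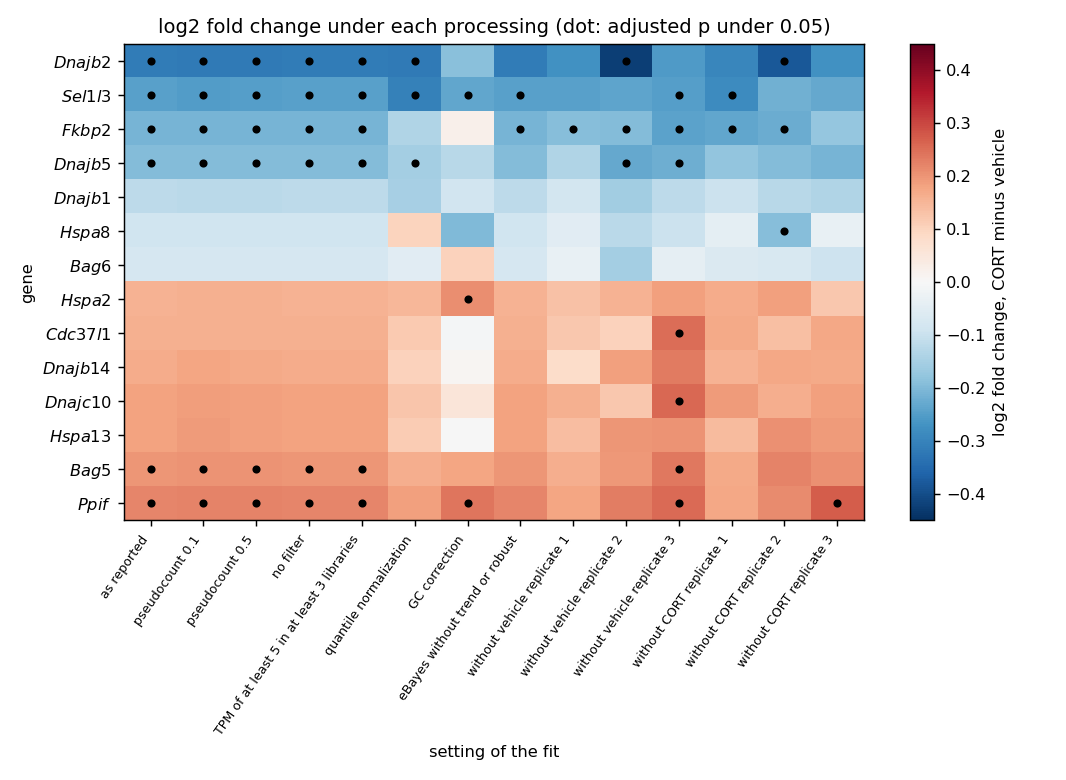
Log2 fold change (colour, CORT minus vehicle) of the 14 chaperone genes under each processing of the data, with a dot where the adjusted p from limma was under 0.05. Fkbp2 kept a dot in 5 of the 6 fits without a library and had none with quantile normalization or the GC correction, and Sel1l3 kept one under both of these.

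Lists of related genes place the 14 among their partners, and each list is limited to the genes in the table. Among all genes tested 25.8% were higher and 24.7% were lower, so counts in such short lists are descriptions only. Of 21 genes of the cytosolic HSP90 machine, 5 were listed, 1 was higher and 1 was lower. These were the glucocorticoid receptor cochaperones that the name rule left out, Fkbp5 (46.2 ± 2.34 against 121 ± 6.19 TPM, SD, n = 3, log2 fold change 1.37) and Fkbp4 (161 ± 10.5 against 140 ± 10.7 TPM, SD, n = 3, log2 fold change -0.21, limma adjusted p 0.041). The change of Fkbp5 is far beyond that of any of the 14 genes. Of 15 HSP70 and HSP110 genes 3 were listed, those described above. In limma 0 of them passed the adjusted threshold and 1, Hspa2, was under 0.05 before adjustment. Of 14 genes grouped here as nucleotide exchange factors Bag5 and Bag6 were listed, and exchange activity of Bag6 was not assumed.

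Of 48 genes of ER folding and quality control 8 were listed, with Herpud1 higher and Fkbp2 lower. The median log2 fold change of the 8 genes was 0.05, against 0.05 over all genes tested. Derl3 and Os9 had negative values (-0.65 and -0.11) and Edem3 a positive one (0.18). None of these passed (limma adjusted p 0.11, 0.13 and 0.11). Herpud1, a part of the ER degradation complex that the unfolded protein response induces, had 61.0 ± 1.503 TPM in vehicle and 70.6 ± 1.72 TPM in CORT (SD, n = 3, log2 fold change 0.21, limma adjusted p 0.024). Of 19 regulators and targets of that response 2 were listed. Creb3l2, an ER-anchored transcription factor, was higher (log2 fold change 0.41, limma adjusted p 0.026). Its level was low, with 3.89 ± 0.529 TPM in vehicle and 5.47 ± 0.374 TPM in CORT (SD, n = 3). Atf6, a sensor of that response, had a log2 fold change of 0.16 and did not pass (limma adjusted p 0.10). Of 17 genes of the chaperonin TRiC and prefoldin only Pdcl was listed, a TRiC cofactor in G protein assembly, which was higher by 0.53 on the log2 scale (limma adjusted p 0.0054). Of 36 prolyl isomerases 6 were listed, 3 were higher (Fkbp5, Ppif and Ppwd1) and 2 were lower (Fkbp2 and Fkbp4). With 50.6% of all genes tested called and so few isomerases listed, no response of the family is read from this. Ppif was the only listed gene of 21 mitochondrial chaperones and proteases. Genes of the lists of 10 small heat shock proteins and of 2 cold-inducible RNA-binding proteins were not analysed here.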

How the data were processed

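Hippocampal RNA of 3 CORT and 3 vehicle libraries was analysed. The authors trimmed paired-end reads with fastp, and RSEM, StringTie, HISAT2 and build GRCm39 are named in the submitters' processing notes. Their versions and annotation were not given in the sources used here. Deposited TPM values, computed by the authors, were available for each library. The deposited fold changes and p-values of the authors' own comparison were not used. All listed genes were below the study's p threshold, and the table holds no counts. TPM sums over listed genes give no depth, so the precision from read number is unknown.

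Expression was put on the log2(TPM + 1) scale and compared with limma 3.58.1 in R 4.3.3 (eBayes with trend and robust options). Genes had to reach 1 TPM in 3 or more libraries, and Benjamini-Hochberg adjustment was over all genes tested. The step was also run on simulated data in which a minority of genes changed. The table differs from that setting, so the run gives no assurance for changes as small as those of the chaperone genes. P-values set the difference between the groups against the spread between these libraries, which limma moderates across genes. The chaperone genes and the gene lists were chosen with earlier results of these data known. Every chaperone gene is named, and other genes come from the lists, up to 4 for each by smallest p. Results of 2 of the lists are not reported here. GC content was that of the longest GENCODE M21 transcript, available for 99.9% of genes, and the correction used a spline with 4 degrees of freedom. Copies were searched with BLAST 2.17.0. Alternatives were pseudocounts of 0.1 and 0.5, other filters, quantile normalization, the GC correction, plain eBayes, a threshold of 0.01 and leaving out each library. Python 3.11.15, pandas 2.3.3 and matplotlib 3.10.9 made tables and figures.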

Additional observations from a re-analysis of the deposited data

How the results depend on the processing

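The numbers of chaperone genes called, 2 higher and 4 lower, were the same with pseudocounts of 0.1 and 0.5, with no filter and with a TPM minimum of 5. With quantile normalization 0 were higher in limma (3 at an unadjusted p under 0.05) and 3 lower, with 50.4% of all genes called. With the GC correction 2 were higher and 1 lower, where 36.8% of all genes tested were called against 50.6% as reported. Without trend and robust moderation 0 were higher (3 unadjusted) and 2 lower, with 45.8% of all genes called. At a threshold of 0.01 there were 0 higher and 0 lower (0 and 2 unadjusted). When single libraries were left out, 0 to 4 were higher and 0 to 3 lower, while the share called among all genes tested ran from 27.9% (without vehicle replicate 1) to 54.3% (without vehicle replicate 3). The count higher was 0 without vehicle replicate 1 or 2 or CORT replicate 1 or 2 (0, 2, 0 and 1 unadjusted), 1 without CORT replicate 3 and 4 without vehicle replicate 3. The count lower was 0 without CORT replicate 3 (4 unadjusted), 1 without vehicle replicate 1 and 2 without CORT replicate 1. The cause of these losses was not tested, although fewer libraries leave less to estimate the spread from. The sign changed with the GC correction for Bag6 (0.11), Cdc37l1 (-0.0083), Fkbp2 (0.024) and Hspa13 (-0.0011), and with quantile normalization for Hspa8 (0.10). All 14 signs were as reported in every fit that left out a library, although limma adjusted p reached 0.72 for Hspa8. The genes were listed because they differed between these same libraries, so kept signs are a description and no evidence of direction. Kept signs were not counted over all genes tested. No paired analysis was made, because mice were divided into the groups at random and no pairing between the groups is named.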

Other observations

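The libraries of the CORT group were more alike in most chaperone genes. The coefficient of variation of TPM was smaller in the CORT group than in the vehicle group for 9 of the 14 genes (64.3%), with medians of 4.13% and 5.45%. The same was true of 61.8% of all genes tested, with medians of 6.57% and 8.70%, so the chaperone genes were near the rest of the table in this. Dnajb14 had 1.30% in CORT and 11.1% in vehicle, and Bag6 had 2.19% and 9.05%. Hspa8 went the other way, with 12.8% in CORT and 4.97% in vehicle, and Sel1l3 had 5.09% and 0.932%. Vehicle replicate 3 was the highest vehicle library for 8 of the 14 genes and vehicle replicate 2 the lowest for 7. Such counts were not made over all genes tested, so no trait of the chaperone genes is read from them. These spreads come from 3 libraries a group and were not tested.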
